A study of Homo sapiens with 6 samples.

Results

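The 10 genes PHGDH, PSAT1, PSPH, SHMT1, SHMT2, MTHFD1, MTHFD1L, MTHFD2, ALDH18A1 and PYCR1, which encode enzymes of serine, folate one-carbon and proline synthesis, were selected by symbol from the 30618 genes with deposited counts. All 10 were found, all 10 had FPKM values (mapped fragments scaled by gene length and library size), and all 10 passed the filter on low counts that left 16749 genes. ARPE-19, a line established from human retinal pigment epithelium, was kept in 50 mM glucose and transfected by lipid either with a non-targeting siRNA (NC, 3 libraries) or with an siRNA against EIF1 (siEIF1, 3 libraries). Both groups were in high glucose, and no library without it is compared here. EIF1 is the initiation factor that helps the scanning ribosome to select a start codon. The methods print a single siEIF1 sequence, call the 3 replicates per group independent and place all 6 libraries in a single sequencing run. The labels of the uncropped blot list more than a single numbered siEIF1 set, and the paper does not state which set was sequenced. The harvest time of the sequenced cells is not given in the sources used here.

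The deposited counts summed to between 26499929 and 31431479 per library. EIF1 had an FPKM of 281.08 to 294.35 in the NC and of 22.68 to 24.28 in the siEIF1 libraries (log2 fold change -3.58, standard error 0.055). Of the retinal pigment epithelium markers, KRT8, KRT18, BEST1, OTX2 and MITF were expressed. TYRP1 had at most 0.12, PMEL at most 0.32 and RLBP1 at most 0.73 FPKM, and RPE65 had no entry in the counts or FPKM. Overlap with genes on the opposite strand was looked up for the 10 enzymes only, and not for these markers. Summed over 6 markers of endothelium, leukocytes, glia and neurons, the FPKM stayed between 0.04 and 0.11 in every library.

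The serine pathway draws a glycolytic intermediate, 3-phosphoglycerate, out of glycolysis. PHGDH oxidizes it, PSAT1 transfers an amino group from glutamate, and PSPH removes the phosphate to give serine. The hydroxymethyltransferases SHMT1, in the cytosol, and SHMT2, in mitochondria, then split serine into glycine and a carbon unit bound to tetrahydrofolate. Inside mitochondria, MTHFD2 oxidizes this unit and MTHFD1L releases it as formate. MTHFD1 uses formate in the cytosol to make the folates needed for purines and thymidylate. ALDH18A1 turns glutamate into the intermediate pyrroline-5-carboxylate, and PYCR1 reduces that to proline. In retinal pigment epithelium, serine and proline metabolism are known for supplying both the epithelium itself and the neighbouring retina. Many of these genes are known targets of ATF4, the transcription factor of the amino acid and integrated stress responses.

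All 3 genes of serine synthesis had lower expression in the siEIF1 group, as had MTHFD2 in mitochondria and MTHFD1 in the cytosol, with log2 fold changes from -0.42 to -0.21. ALDH18A1, which opens the proline branch, was higher by 13.8%. SHMT1, SHMT2, MTHFD1L and PYCR1 did not pass the test. At a Benjamini-Hochberg adjusted p under 0.05 in edgeR's quasi-likelihood test, 5 of the 10 genes were lower, beside 10.4% of all genes tested, and 1 was higher, beside 10.2%, so 6 of the 10 were called in either direction, beside 20.6%. In CPM (counts scaled by library size), the siEIF1 libraries lay entirely below the NC libraries in 5 of the 10, beside 18.9% of all genes tested, and entirely above them in 2, beside 18.2%. The median log2 fold change was -0.13 over the 10 genes and 0.0033 over all genes tested. None of the 10 passed the study's additional limit of a fold change above 2 or below 0.5, which 1.71% of all genes tested passed. In bulk RNA, fewer cells of a kind and less RNA per cell cannot be told apart.

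**Figure D1:**
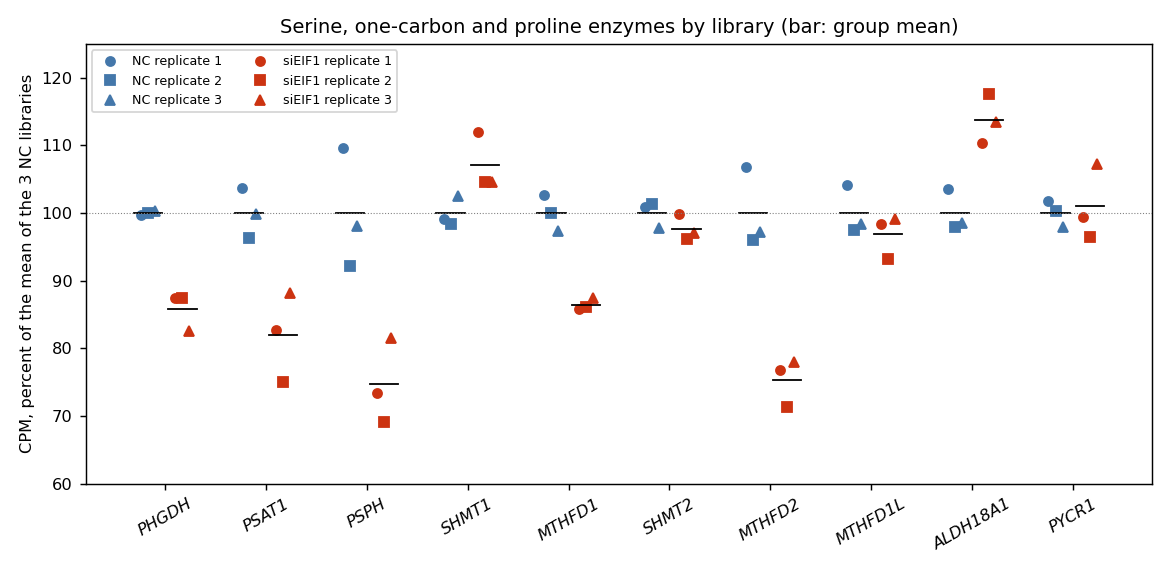
CPM of each enzyme as a percentage of its NC mean, with blue for NC and red for siEIF1 libraries, a marker shape per replicate number and a bar at the group mean. The siEIF1 points of PHGDH, PSAT1, PSPH, MTHFD1 and MTHFD2 all lie below the NC points, and those of ALDH18A1 all lie above them.

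To see which promoter sequence the enzymes that moved together share, the RefSeq promoter windows (GRCh38.p14, 250 bases before to 50 bases after the start) were searched on both strands. Windows were matched for 7 of the 10 genes, and PSPH, SHMT2 and PYCR1 were not searched. The first listed start was used for MTHFD1L, which has 4. That window, chr6:150866236-150866535, lies wholly past the start of the canonical transcript at 150865702, while the other windows were placed at the canonical start. CCAAT, the box bound by the factor NF-Y, was present in 6 of the 7 windows and absent from that of ALDH18A1. It was present in 34.6% of all 35116 promoter windows, which were not limited to the genes tested here. A stretch around a box before the start of each of the 4 searched enzymes that were lower is shown 5′ to 3′ on the strand of the gene, with the box in capitals. The first bases of these boxes lie at -71 from the start in PHGDH, -83 in PSAT1, -74 in MTHFD2 and -216 in MTHFD1, and further boxes lie at -113 and -52 in PSAT1, -184 in MTHFD2 and, past the start, at 35 in MTHFD1.
PHGDH, chr1:119711852-119711881, forward strand: agtatttccgtCCAATcaaaaggagactgt
PSAT1, chr9:78297031-78297060, forward strand: cttcgcgcgaaCCAATtagcgcagggcctg
MTHFD2, chr2:74198530-74198559, forward strand: tgcggcagggaCCAATgggtggcggaggga
MTHFD1, chr14:64388126-64388155, forward strand: ctttctttccgCCAATcatttccgccagcc

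CCAAT boxes were also present in SHMT1 and MTHFD1L, which did not pass the test, so the box did not separate the enzymes that were lower from the others. The element TGATGNAA, a core bound by ATF4 with a C/EBP partner, was found in 1 of the 7 windows, that of MTHFD1L, and in 3.62% of all windows. The MTHFD1L window lies past the canonical start of that gene. CACGTG, an E-box, was found in MTHFD1, MTHFD1L and ALDH18A1, and in 7.26% of all windows. TTTGGCGC, TTTCGCGC, TTTGCCGC and TTTCCCGC, spellings of the E2F site, were found in 0 of the 7, and any of them in 3.31% of all windows. The MTHFD1L and ALDH18A1 elements are shown because these genes stood apart from the enzymes that were lower. Each match is a description of these letters and not a site, and the windows do not cover introns or more distant sequence.
MTHFD1L with TGATGNAA, chr6:150866346-150866375, forward strand: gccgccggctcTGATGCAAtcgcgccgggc
ALDH18A1 with CACGTG, chr10:95656829-95656858, reverse strand: ggctggcccgcCACGTGgagcgctggcttg

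PHGDH (ENSG00000092621.13), the NAD-dependent dehydrogenase that commits 3-phosphoglycerate to serine, lies on the forward strand of GRCh38 at chr1:119648411-119744218 in GENCODE release 44, with 12 exons in its canonical transcript. Its FPKM was 29.09, 29.01 and 29.72 in NC replicates 1 to 3 and 25.25, 24.71 and 24.34 in siEIF1 replicates 1 to 3. The NC libraries lay within 1.01-fold of each other in CPM, and every siEIF1 library lay below them. In the fit, the log2 fold change was -0.22 (95% confidence interval -0.32 to -0.12, edgeR, adjusted p = 0.00453), a fall to 0.858 of the NC level.

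PSAT1 (ENSG00000135069.14, chr9:78297125-78330093, forward strand), the aminotransferase of the middle step, had an FPKM of 140.33, 129.63 and 137.54 in the NC and of 110.76, 98.1 and 120.47 in the siEIF1 libraries. The groups did not overlap, although the siEIF1 libraries spread over 1.18-fold in CPM, with replicate 2 the lowest and replicate 3 the highest. PSAT1 had a log2 fold change of -0.29 (95% confidence interval -0.42 to -0.16, edgeR, adjusted p = 0.00408). PSPH (ENSG00000146733.14, chr7:56011051-56051604, reverse strand), the phosphatase of the last step, had an FPKM of 13.52, 11.3 and 12.3 in the NC and of 8.98, 8.23 and 10.17 in the siEIF1 libraries. Its log2 fold change was -0.42 (95% confidence interval -0.59 to -0.25, edgeR, adjusted p = 0.00179). Its groups were separated by 1.13 FPKM, about the standard deviation of 1.11 among the NC libraries. PSPH, PSAT1 and SHMT1 have pseudogenes by name, and PSPHP1, PSAT1P3 and SHMT1P1 held 5, 2 and 2 counts in all 6 libraries together. Only uniquely mapped reads were counted, so these counts cannot show whether reads were lost to copies of similar sequence.

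MTHFD2 (ENSG00000065911.13, chr2:74186172-74217565, forward strand), the mitochondrial dehydrogenase and cyclohydrolase, had an FPKM of 20.67, 18.44 and 19.12 in the NC and of 14.69, 13.3 and 15.21 in the siEIF1 libraries. The lowest NC library lay 3.23 FPKM above the highest siEIF1 library. The log2 fold change was -0.41 (95% confidence interval -0.53 to -0.29), and its adjusted p of 0.000189 in edgeR was the smallest of the 10 enzymes. The libraries were made to keep strand, but the strand setting of the counting is not stated, and MTHFD2 shares 1324 bases of its canonical exons with SLC4A5 and 295 with ENSG00000264324, both on the opposite strand. SLC4A5, with a log2 fold change of -0.98 (edgeR, adjusted p = 0.0058), had a mean of 81.8 counts per library against 6814 for MTHFD2. ENSG00000264324 had a mean of 1990 and a log2 fold change of 0.15 (edgeR, adjusted p = 0.0515), the opposite sign to MTHFD2.

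SHMT2 (ENSG00000182199.11, chr12:57229573-57234935, forward strand), the mitochondrial hydroxymethyltransferase that produces the substrate of MTHFD2, had an FPKM of 69.71, 69.7 and 68.75 in the NC and of 68.38, 64.29 and 67.77 in the siEIF1 libraries. In FPKM the groups were apart by 0.37, and in CPM they overlapped. SHMT2 had a log2 fold change of -0.035 (95% confidence interval -0.13 to 0.065, edgeR, adjusted p = 0.657). MTHFD1L (ENSG00000120254.16, chr6:150865679-151101887, forward strand), the mitochondrial synthetase that releases formate, had an FPKM of 20.66, 19.25 and 19.88 in the NC and of 19.43, 17.97 and 19.88 in the siEIF1 libraries. The groups overlapped, with a log2 fold change of -0.043 (95% confidence interval -0.15 to 0.062, edgeR, adjusted p = 0.595). The confidence intervals of SHMT2 and MTHFD1L do not reach the fitted value of MTHFD2, although the mitochondrial genes were not tested against each other in the fit.

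In the cytosol, MTHFD1 (ENSG00000100714.17, chr14:64388031-64463457, forward strand), the enzyme that interconverts the folates carrying a carbon unit, had an FPKM of 7.85, 7.56 and 7.57 in the NC and of 6.49, 6.35 and 6.75 in the siEIF1 libraries. Every siEIF1 library was lower than every NC library, and the log2 fold change was -0.21 (95% confidence interval -0.31 to -0.11, edgeR, adjusted p = 0.00538). SHMT1 (ENSG00000176974.20, chr17:18327860-18363563, reverse strand), the cytosolic hydroxymethyltransferase, had an FPKM of 3.27, 3.22 and 3.44 in the NC and of 3.65, 3.33 and 3.48 in the siEIF1 libraries. Its groups overlapped in FPKM and not in CPM, where the siEIF1 libraries were the higher ones, and groups without overlap were found in 37.1% of all genes tested. SHMT1 had a log2 fold change of 0.096 (95% confidence interval -0.031 to 0.22, edgeR, adjusted p = 0.288). SHMT1 shares 184 bases of its canonical exons with SMCR8, and MTHFD1 178 with ZBTB25, on the opposite strand.

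Of the proline enzymes, ALDH18A1 (ENSG00000059573.9, chr10:95605941-95656711, reverse strand), the pyrroline-5-carboxylate synthase, had an FPKM of 14.78, 13.89 and 14.28 in the NC and of 15.61, 16.21 and 16.37 in the siEIF1 libraries. The highest NC library lay 0.83 FPKM below the lowest siEIF1 library. The log2 fold change was 0.19 (95% confidence interval 0.079 to 0.29, edgeR, adjusted p = 0.0179). In the fits with a library left out, this call was lost without NC replicate 2 (adjusted p = 0.083), NC replicate 3 (adjusted p = 0.0835) or siEIF1 replicate 2 (adjusted p = 0.0837) in edgeR. It was also lost with limma on either FPKM scale, and over all alternatives its adjusted p ran from 0.0104 to 0.261. PYCR1 (ENSG00000183010.17, chr17:81932384-81942412, reverse strand), the mitochondrial reductase that completes proline, had an FPKM of 37.44, 36.66 and 36.5 in the NC and of 36.08, 34.11 and 39.69 in the siEIF1 libraries. The siEIF1 libraries lay on both sides of the NC libraries, with a log2 fold change of 0.0095 (95% confidence interval -0.10 to 0.12, edgeR, adjusted p = 0.925). PYCR1 shares 450 bases of its canonical exons with ENSG00000263585, a noncoding gene on the opposite strand with a mean of 142 counts.

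**Figure D2:**
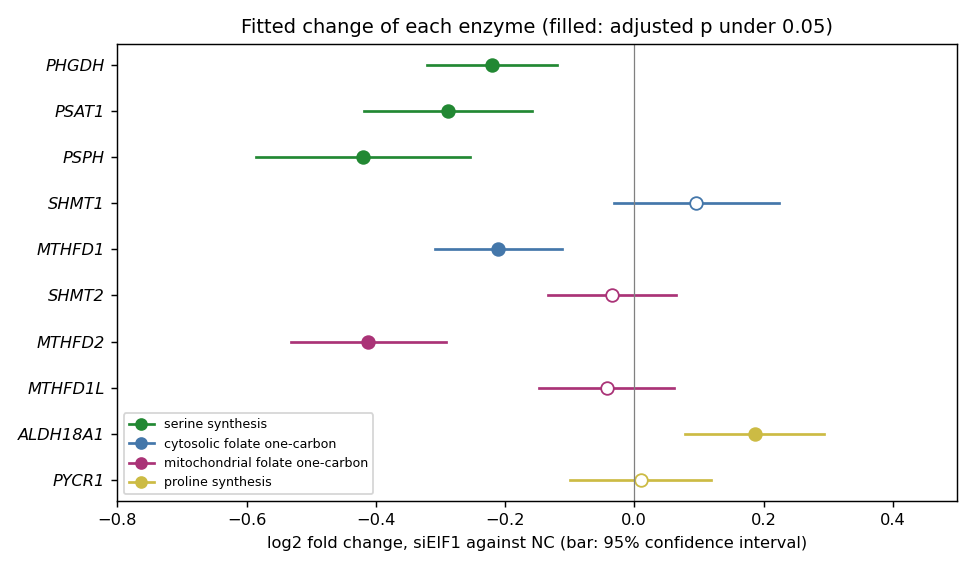
Fitted log2 fold change of each enzyme, siEIF1 against NC, on the x axis, with a bar for the 95% confidence interval and a colour per branch. Filled points had an adjusted p under 0.05, namely 5 genes between -0.42 and -0.21 and ALDH18A1 at 0.19, and the bars of the open points cross 0.

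When log2(FPKM + 1) values were tested with limma, PHGDH, MTHFD1 and MTHFD2 were called lower, while PSPH (adjusted p = 0.0754, range over all alternatives 5.53e-08 to 0.141) and PSAT1 (adjusted p = 0.101, range over all alternatives 4.67e-06 to 0.198) were not. With a pseudocount of 0.1, none of the 10 was called by limma, with adjusted p-values from 0.0823 for MTHFD2 upwards. The fitted log2 fold changes under log2(FPKM + 1) were -0.40 for PSPH and -0.31 for PSAT1, close to those from counts.

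The enzymes were next compared in level. The FPKM values of the authors divide by a length, and for 92.3% of the 10605 genes with a mean count of at least 200 this length was within 5% of the summed length of all annotated exons of the gene, after a common factor. For PHGDH all annotated exons add up to 9187 bases and the canonical transcript to 1866 bases, and for MTHFD1 to 17357 and 3154 bases, so the order of the genes depends on the length used. On the FPKM scale the NC mean was 136 ± 5.55 (SD, n = 3) for PSAT1, 69.4 ± 0.551 for SHMT2, 36.9 ± 0.503 for PYCR1 and 29.3 ± 0.389 for PHGDH, and SHMT1 was the lowest at 3.31 ± 0.115. In this order only MTHFD1L (19.9 ± 0.706) and MTHFD2 (19.4 ± 1.14) were neighbours whose NC libraries overlapped.

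Per kilobase of canonical transcript, the NC mean in CPM was 180 ± 3.46 (SD, n = 3) for SHMT2, 176 ± 0.483 for PHGDH and 166 ± 6.03 for PSAT1, so that PHGDH moved from the fourth to the second place. The libraries of SHMT2 and PHGDH overlapped. MTHFD2 followed at 61.5 ± 3.66 and PYCR1 at 57.2 ± 1.20, then MTHFD1 at 36.2 ± 0.961 and MTHFD1L at 34.5 ± 1.20, which overlapped each other. The lowest were PSPH at 21.1 ± 1.87, ALDH18A1 at 19.6 ± 0.606, whose libraries overlapped those of PSPH, and SHMT1 at 11.6 ± 0.258. In the siEIF1 group the order on this scale changed in 3 places, none with overlap. PYCR1 at 57.6 ± 3.18 stood above MTHFD2 at 46.3 ± 2.19, ALDH18A1 at 22.3 ± 0.702 stood above PSPH at 15.8 ± 1.34, and MTHFD1L at a mean of 33.5 stood above MTHFD1 at 31.3 ± 0.320. SHMT2 at 176 ± 3.45 remained first, apart from PHGDH at 151 ± 5.06, whose libraries now overlapped those of PSAT1.

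**Figure D3:**
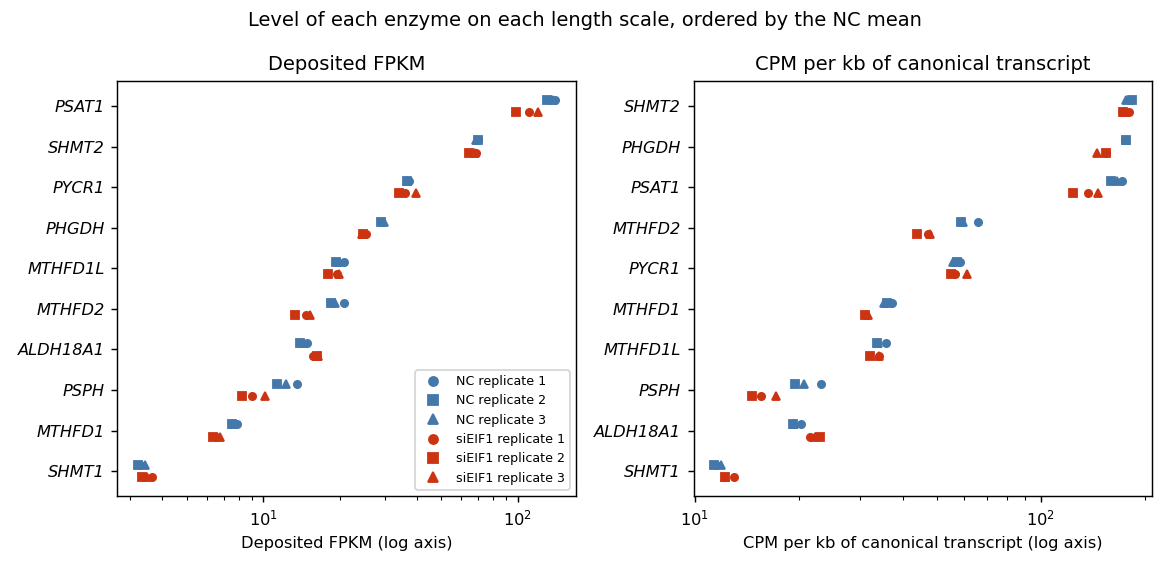
Level of each enzyme in each library, as deposited FPKM on the left and as CPM per kilobase of canonical transcript on the right, both on log axes and ordered by the NC mean. PSAT1 leads at 136 FPKM on the left, while SHMT2, PHGDH and PSAT1 lie close together between 166 and 180 in the NC group on the right.

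Ratios of enzymes inside each library do not depend on how the libraries are scaled, and 6 were compared. The smallest p that 3 libraries against 3 allow in a two-sided exact permutation test is 0.1, and after Benjamini-Hochberg adjustment over the 6 ratios the smallest value was 0.15, so none could pass. MTHFD1L to MTHFD1, mitochondrial to cytosolic, was 2.63, 2.55 and 2.63 in the NC and 2.99, 2.83 and 2.95 in the siEIF1 libraries (log2 difference 0.17, standard error 0.029, exact permutation p = 0.1). All siEIF1 libraries were above the NC libraries, MTHFD1 being the gene of the pair that passed the test. MTHFD2 to MTHFD1 was 2.63, 2.44 and 2.53 in the NC and 2.26, 2.09 and 2.25 in the siEIF1 libraries (log2 difference -0.20, standard error 0.048, exact permutation p = 0.1). Here both genes of the pair were lower in the fit, and every siEIF1 ratio was below every NC ratio.

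SHMT2 to SHMT1 was 21.3, 21.6 and 20 in the NC and 18.7, 19.3 and 19.5 in the siEIF1 libraries (log2 difference -0.13, standard error 0.039, exact permutation p = 0.1), and PYCR1 to ALDH18A1 was 2.53, 2.64 and 2.56 and then 2.31, 2.10 and 2.42 (log2 difference -0.18, standard error 0.063, exact permutation p = 0.1). Neither ratio overlapped between the groups, although neither SHMT2 nor SHMT1 passed the test in the fit. Single genes had groups without overlap in 37.1% of all genes tested, and ratios of other gene pairs were not computed. Within serine synthesis, PSAT1 to PHGDH (log2 difference -0.070, standard error 0.097, exact permutation p = 0.6) and PSPH to PHGDH (log2 difference -0.20, standard error 0.12, exact permutation p = 0.3) overlapped between the groups. In siEIF1 replicate 3 these ratios were 4.95, above every NC library, and 0.418, among the NC libraries.

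**Figure D4:**
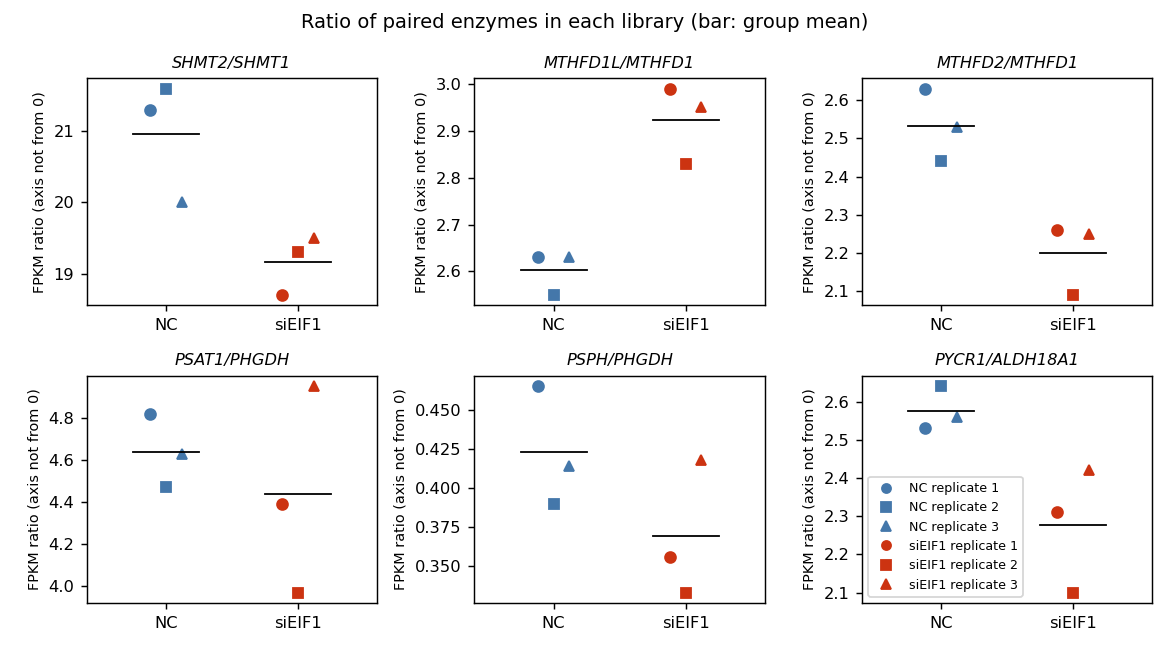
FPKM ratio of 6 pairs of enzymes in each library, with a bar at the group mean and y axes that do not start at 0. The groups are apart for SHMT2/SHMT1, MTHFD1L/MTHFD1, MTHFD2/MTHFD1 and PYCR1/ALDH18A1, and they overlap for PSAT1/PHGDH and PSPH/PHGDH.

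The spread within each group was compared between the enzymes. NC replicate 1 had the highest CPM of its group in 7 of the 10 genes, against 36.8% of all genes tested, and siEIF1 replicate 2 had the lowest in 7, against 33.5%. siEIF1 replicate 3 was the highest in 6, against 36.2%, and of the other 4 PHGDH was the lowest there. After removal of the group means, the correlation over the 6 libraries, which share these libraries for all genes, was above 0 in 32 of the 45 pairs of enzymes, with a median of 0.20 and a range from -0.93 for PHGDH with PYCR1 to 0.995 for MTHFD2 with MTHFD1L. The values of PHGDH were -0.77 with PSAT1 and -0.70 with PSPH. No such values were computed for other genes.

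Of 68 other genes of the connected pathways, 60 passed the filter on low counts, and 13 were lower and 4 higher at an adjusted p under 0.05 in edgeR (median log2 fold change -0.036), beside 10.4% lower and 10.2% higher among all genes tested. Among 14 tested folate enzymes and carriers, 4 were lower and 0 higher. GGH, which trims the glutamate tail of folates, fell from 2.20 ± 0.0907 to 1.67 ± 0.0757 FPKM (SD, n = 3, log2 fold change -0.38, edgeR, adjusted p = 0.00183). SLC25A32, the mitochondrial folate carrier, had a log2 fold change of -0.37, and TYMS, thymidylate synthase, of -0.22. Of 12 tested purine synthesis genes, 5 were lower and 0 higher, beside the same 10.4% and 10.2%, with a median log2 fold change of -0.13. These were ADSS2 (-0.34), PPAT (-0.27), GART (-0.24), GMPS (-0.19) and PAICS (-0.19). Both GART and ATIC, which had a log2 fold change of -0.04 (edgeR, adjusted p = 0.672), use the formyl folate made by MTHFD1. TYMS, GMPS, PPAT and ATIC are named beyond the rule for named genes, after their values were seen.

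All 15 proliferation markers were lower (edgeR, adjusted p under 0.05), beside 10.4% of all genes tested. Their median log2 fold change was -1.03, and 9 of the 15 had a fold change below 0.5. Per library, their FPKM summed to between 120 and 126 for NC and to between 81.9 and 83.5 for siEIF1. PCNA made up the largest part of this sum, and its mean FPKM fell only from 67.0 to 54.6 (log2 fold change -0.28). The 4 folate genes, 5 purine genes and 5 enzymes above were picked because they were called lower. Their sharing the direction of these markers follows from that choice and carries no further information. Of the tested genes, 10 of 14 folate and 7 of 12 purine genes did not pass the test. The part of the proliferation markers in these results was not tested.

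Around serine and glycine, 2 of 12 tested genes were higher and 0 lower, beside 10.2% and 10.4% of all genes tested. SFXN3, a mitochondrial serine carrier, rose from 17.3 ± 1.01 to 21.4 ± 0.528 FPKM (SD, n = 3, log2 fold change 0.32, edgeR, adjusted p = 7.16e-04), and SPTLC3, a subunit of serine palmitoyltransferase, had a log2 fold change of 0.31. Of 11 tested genes of the methionine cycle and transsulfuration, 2 were lower and 0 higher, beside 10.4% and 10.2% of all genes tested. CTH, the cystathionine lyase that makes cysteine, fell from 16.3 ± 2.24 to 10.7 ± 1.52 FPKM (SD, n = 3, log2 fold change -0.59, edgeR, adjusted p = 9.61e-04), and MTRR, which reactivates methionine synthase, had a log2 fold change of -0.23.

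In the proline and glutamate family, 2 of 11 tested genes were higher and 2 lower, beside 10.2% and 10.4% of all genes tested. ALDH4A1, which oxidizes the intermediate of proline breakdown back to glutamate, rose from 4.11 ± 0.584 to 5.69 ± 0.0473 FPKM (SD, n = 3, log2 fold change 0.49, edgeR, adjusted p = 0.00192), and GLUL, glutamine synthetase, had a log2 fold change of 0.18. GOT1, the cytosolic aspartate aminotransferase, fell from 27.5 ± 3.53 to 17.6 ± 1.47 FPKM (SD, n = 3, log2 fold change -0.62, edgeR, adjusted p = 1.29e-04), and ASNS, asparagine synthetase, had a log2 fold change of -0.35.

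**Figure D5:**
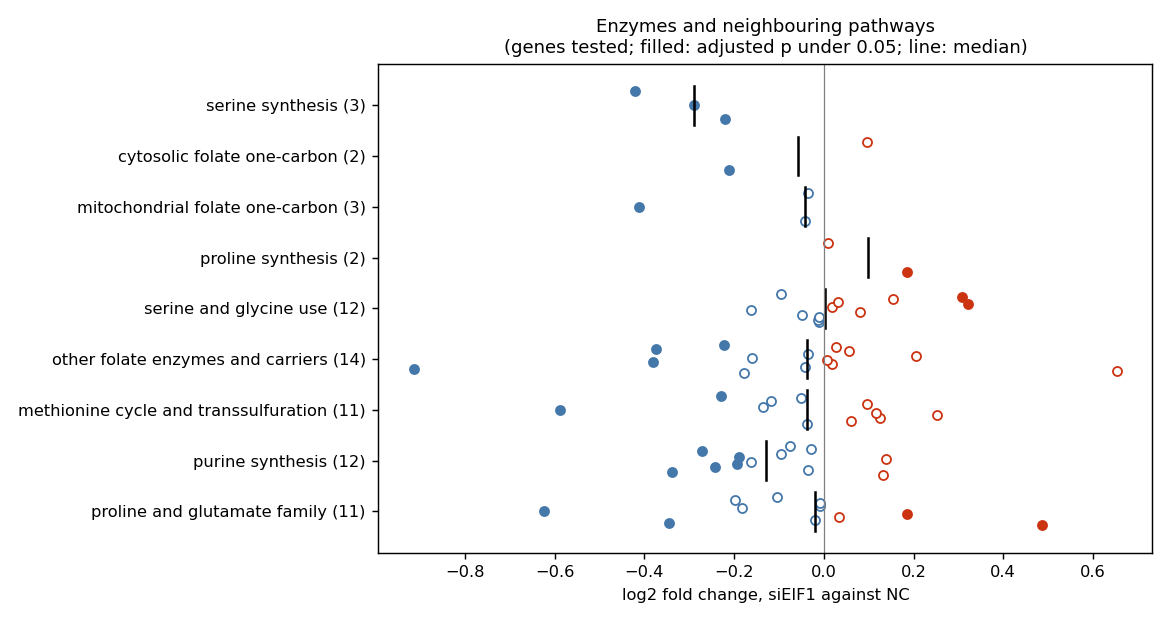
Log2 fold change of every tested gene of the 4 enzyme branches and of 5 connected pathway lists, with the number tested in parentheses, filled points at an adjusted p under 0.05 and a line at the list median. The serine synthesis genes lie between -0.42 and -0.22 and all 3 are filled.

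ATF4 itself was higher, with 238.24, 234.83 and 237.85 FPKM in the NC and 278.61, 280.82 and 266.74 in the siEIF1 libraries (log2 fold change 0.24, edgeR, adjusted p = 0.00513). Of the 13 other tested stress genes listed with ATF4 and outside these pathways, 10 were lower and 0 higher, beside 10.4% and 10.2% of all genes tested. Of the enzymes that are known ATF4 targets, PHGDH, PSAT1, PSPH and MTHFD2 were lower, ALDH18A1 was higher, and SHMT2, PYCR1 and MTHFD1L did not pass the test.

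For 1 enzyme each of serine, mitochondrial one-carbon and proline synthesis, the 3 genes most alike in CPM over the 6 libraries were sought among 8028 genes with a mean count of at least 500. For MTHFD2 they were CHAC1 (Pearson r = 0.9994), BUB3 (r = 0.9972) and FOXD1 (r = 0.9969), and for PHGDH KIF22 (r = 0.9967), TUBB4B (r = 0.9929) and H2AZ2 (r = 0.9921). For PYCR1, whose groups overlapped, they were OGA (r = 0.974), TLK1 (r = 0.9728) and MPZL1 (r = 0.9723). All 6 libraries enter each value, so the difference between the groups is part of it for PHGDH and MTHFD2. The genes were picked as the highest among 8028 over only 6 libraries. Such a choice gives high values also for PYCR1, whose groups overlapped.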

How the data were processed

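RNA-seq counts and FPKM per gene were analysed for 3 NC and 3 siEIF1 libraries, grouped by sample title. The authors trimmed reads with FASTX-Toolkit, aligned them to GRCh38 with HISAT2, counted uniquely mapped reads and deposited raw counts. FPKM values, rounded to 2 decimals, were deposited by the authors as well. The counter, strand setting and annotation release are not given in the sources used here, and the protocols of the labels and of the methods name directional libraries but differ in RNA input.

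Genes passing filterByExpr were tested with edgeR 4.0.16 (TMM, quasi-likelihood, Benjamini-Hochberg over all genes) in R 4.3.3, after the same functions were tested on simulated data. Standard errors were derived from the F statistic. Alternatives were RLE scaling, no filter or at least 10 counts in every library, DESeq2 1.42.0, limma 3.58.1 on log2(FPKM + 1) or log2(FPKM + 0.1), a replicate block, and each library left out. Ratios were tested by exact permutation in scipy 1.17.1. The enzymes had mean counts of 880 to 11091 per library.

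The enzymes, pathway lists and tests were chosen with earlier results of these data known. Named were all 10 enzymes, EIF1, ATF4, up to 3 genes per pathway list past the threshold by p, and the 3 genes most correlated with PHGDH, MTHFD2 and PYCR1. Exon lengths and positions came from GENCODE release 44, in which 30535 of the 30618 gene IDs were found. Some listed genes count in the totals but are not reported here by name.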

Additional observations from a re-analysis of the deposited data

How the results depend on the processing

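The 5 lower and 1 higher enzyme calls were the same in number under RLE scaling, both other count filters, DESeq2 and the replicate block. With limma on log2(FPKM + 1), enzyme calls became 3 lower and 0 higher, calls of the pathway lists 6 and 2, and those of all genes 1006 and 728. With a pseudocount of 0.1 they became 0 and 0, 1 and 0, and 358 and 178, and the cause was not tested. With a library left out, lower enzyme calls stayed at 5, higher ones ran from 0 to 1, pathway list calls from 9 to 15 lower and from 3 to 6 higher, and all gene calls from 1124 to 1763 lower and from 1118 to 1709 higher, the lowest without siEIF1 replicate 2. The cause was not tested. The log2 fold change of EIF1 stayed between -3.61 and -3.56. Enzyme calls at the 2-fold limit stayed at 0 throughout.

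The log2 difference of PSAT1/PHGDH ran from -0.15 to 0.0067, the reversed value being that without siEIF1 replicate 2. The other ratios kept their sign in all alternatives, from -0.29 to -0.13 for PSPH/PHGDH with a library left out. As a replicate block, the number moved pathway list calls from 4 to 7 higher and from 13 to 18 lower, and those of all genes to 2149 higher and 2128 lower. Same-numbered libraries correlated in their deviations at 0.149, 0.0946 and 0.128, each library best with its own number, which is a hint from the data and not from the design. The precision is limited by 3 libraries a group. SHMT1, with the lowest mean count of 880, had a standard error of 0.059, beside 0.060 for PSAT1 with a mean of 9562. The part of depth was not tested.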

Other observations

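Of 10 retinal pigment epithelium markers, 9 had FPKM values, and their sum was 523 to 542 in the NC and 565 to 612 in the siEIF1 libraries. Without KRT8 and KRT18, the sum of the other 7 was 87.1 to 96.7 in the NC and 66.0 to 89.8 in the siEIF1 libraries. KRT8 and KRT18, keratins of simple epithelia, had log2 fold changes of 0.24 and 0.25 (edgeR, adjusted p = 0.0095 and 0.00442). RLBP1, the retinaldehyde-binding protein of the visual cycle, had 0.27, 0.17 and 0.27 FPKM in the NC and 0.69, 0.62 and 0.73 in the siEIF1 libraries (log2 fold change 1.55, edgeR, adjusted p = 0.00102), on 11 to 49 counts per library. BEST1, a chloride channel of the epithelium, had 70.79, 66.58 and 60.54 FPKM in the NC and 62.06, 55.04 and 38.79 in the siEIF1 libraries, and did not pass the test (log2 fold change -0.32, edgeR, adjusted p = 0.106). Whether other genes overlap the exons of BEST1 was not looked up. On BEST1 siEIF1 replicate 3 was the lowest library, while for PSAT1, PSPH, MTHFD1, MTHFD2, MTHFD1L and PYCR1 it had the highest CPM of its group.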
